A study of Mus musculus with 4 samples.

Results

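Heat-shock-high T cells are T cells from mouse melanomas that held many transcripts of Hspa1a and Hspa1b, the inducible HSP70 chaperones. They were chosen from barcodes with at least 300 genes and at most 10% mitochondrial UMIs (unique molecular identifiers, each counting 1 captured transcript). The T cell gate asked for at least 2 UMIs of Cd3d, Cd3e and Cd3g together, no UMI of Csf1r and fewer than 3 of C1qa, C1qb and C1qc. Of 9558 gated T cells among 35411 kept cells, 121 had 10 or more UMIs of Hspa1a and Hspa1b together and form the high class. They were compared with the 9226 gated T cells that had at most 1, the low class, while 211 cells with 2 to 9 UMIs lay between. The cells came from tumours of the B16-F10 melanoma line, sorted as live CD45+ leukocytes and measured by droplet 5′ single-cell RNA sequencing. Mice received an antibody to CD40 into the tumour, or dilution buffer, and an antibody to PD1 or IgG by vein, at days 8 and 11; the tumours were collected at day 14. The labels give neither the age nor the strain of the mice. The groups were control (IgG-treated, no CD40 antibody), CD40 antibody, PD1 antibody, and both antibodies (combination), each a single library of cells pooled from 6 mice. A difference between treatments therefore has no replicate check.

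Cells that face heat, low oxygen, toxic metals or unfolded protein release heat shock factors from chaperones, and these factors switch on genes for HSP70, HSP90, their co-chaperones and small heat shock proteins. The products hold unfolded proteins, refold them or pass them to the proteasome. In T cells taken from tumours the same genes can also be switched on while a tissue is being broken up into cells.

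Hspa1a (chr17:34969190-34972156) and Hspa1b (chr17:34956436-34959238, both on the minus strand of GRCm38, GENCODE vM21) lie beside each other. Their promoters are printed because the pair defines the cells and its members are near copies. Each is the 250 bases before the transcription start on the gene's strand, 5′ to 3′, from RefSeq (GRCm38.p6, chr17:34972157-34972406 and chr17:34959239-34959488), with a match to the heat shock element letters GAANNTTC in capitals.
Hspa1a: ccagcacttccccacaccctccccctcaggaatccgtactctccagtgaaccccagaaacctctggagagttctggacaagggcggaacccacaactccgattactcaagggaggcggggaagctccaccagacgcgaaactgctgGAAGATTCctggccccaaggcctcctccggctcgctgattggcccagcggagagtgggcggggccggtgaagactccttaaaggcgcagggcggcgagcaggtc
Hspa1b: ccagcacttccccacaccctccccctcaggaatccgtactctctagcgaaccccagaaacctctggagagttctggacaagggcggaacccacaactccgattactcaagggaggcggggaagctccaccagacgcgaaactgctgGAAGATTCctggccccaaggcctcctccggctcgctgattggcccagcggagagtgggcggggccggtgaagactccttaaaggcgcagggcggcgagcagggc
The windows share 247 of 250 bases. The substitutions, counted from 1 at the 5′ end of the window with the Hspa1a base first, are C44T, T47C and T249G. The match begins 104 bases before the start in both genes. The first 50 bases after the start share 49, and the transcripts are 91.4% identical over 2729 aligned bases. How the counting divided reads between the copies is uncertain, so the gate uses their sum.

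The gate values themselves are a description, since they chose the cells. No UMI of either gene was seen in 94.2% of gated T cells. Of the 121 high cells, 33 had 10 to 19 UMIs of the pair, 53 had 20 to 49, 21 had 50 to 99 and 14 had 100 to 252. The median was 29. Hspa1a gave 2867 and Hspa1b 2633 UMIs in all, and 119 cells held both. At the threshold, 5 cells had 9 UMIs, 8 cells had 10, no cell had 11 and 4 had 12.

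**Figure D1:**
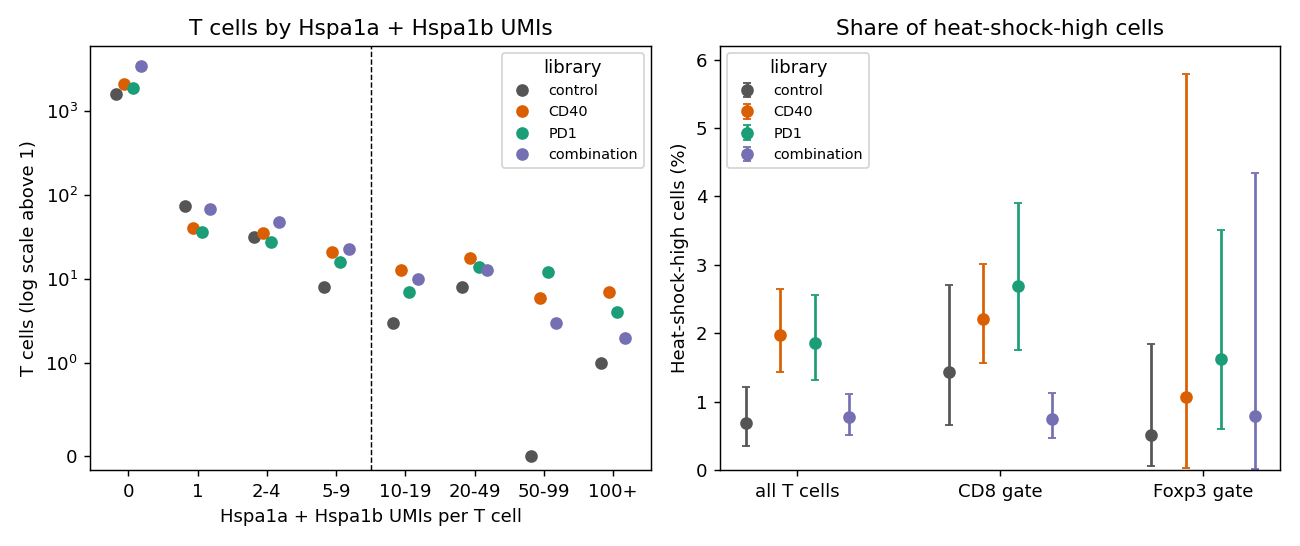
Left, number of gated T cells (log scale above 1) by Hspa1a and Hspa1b UMIs per cell in each library, with a dashed line at the gate of 10. Right, percentage of heat-shock-high cells among all T cells, CD8-gated and Foxp3-gated cells, with exact 95% intervals that cover counting error only. The all-T-cell shares lie at 1.98% and 1.86% in the CD40 and PD1 libraries and at 0.696% and 0.773% in the control and combination libraries.

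Heat-shock-high cells made up 0.696% (12 of 1725; exact Clopper-Pearson 95% interval 0.360 to 1.21%) of T cells in the control library. The share was 1.98% (44 of 2224; 1.44 to 2.65%) in the CD40 library and 1.86% (37 of 1989; 1.31 to 2.56%) in the PD1 library. In the combination library it was 0.773% (28 of 3620; 0.515 to 1.12%). The CD40 and PD1 intervals lie above the combination interval and the control interval. The separation from the control ended among cells with 10000 UMIs or more, with 1.5% (0.689 to 2.83%) in the control against 2.22% (1.51 to 3.14%) in CD40 and 3.14% (2.11 to 4.48%) in PD1. There the combination was at 0.970% (0.616 to 1.45%). These intervals cover counting error only, and no difference between treatments was tested. Depth moved with the gate. The median UMI count of high cells was 31192.5 in the control, 15629.5 in CD40, 19651 in PD1 and 20440 in the combination, against 7110, 11915.5, 9158.5 and 12609 in low cells. It was higher in high cells in 4 of 4 libraries (exact sign-change permutation over libraries, two-sided p = 0.13, the smallest it can give, adjusted p = 0.175 over 7 features). A gate on raw UMIs favours deep cells, so this direction is a description. With a gate of 10 or more UMIs of the pair per 10000, against at most 1, the control reversed, with medians of 1533 in high and 7295.5 in low cells. The medians were then 12000.5 against 11960.5 in CD40, 17768 against 9218 in PD1 and 13068 against 12704 in the combination. With every cell thinned to 5000 UMIs and a gate of 5, the shares were 0.397%, 1.72%, 1.79% and 0.655% in that order. This left out 1, 2, 4 and 2 shallower high cells and 448, 182, 356 and 256 low cells. Standardized to the subset mix of the control library, the shares were 0.696%, 1.48%, 1.66% and 0.832%.

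Most high cells were in the CD8 gate, which asks for 2 or more UMIs of Cd8a and Cd8b1, no Foxp3 and no Cd4. CD8-gated cells were 95 of the 121 (78.5%), against 65.1% of low cells. The share was higher among high cells in 3 of 4 libraries, with 75.0% against 36.3% in the control, 86.4% against 77.0% in CD40, 70.3% against 48.0% in PD1 and 78.6% against 81.0% in the combination (exact sign-change permutation p = 0.25). Foxp3-gated cells (a Foxp3 UMI and no Cd8 UMI; Foxp3 is the regulatory T cell factor) were 10, or 8.26% of high and 10.2% of low cells. Conventional Cd4-gated cells were 2, and 14 cells met none of these gates. Within the CD8 gate the share of high cells was 1.44% (0.658 to 2.71%) in the control, 2.21% (1.57 to 3.02%) in CD40, 2.69% (1.76 to 3.91%) in PD1 and 0.750% (0.470 to 1.13%) in the combination, so the control interval overlaps those of CD40 and PD1 there. Within the Foxp3 gate it was 0.514% (2 of 389), 1.06% (1 of 94), 1.63% (6 of 369) and 0.794% (1 of 126). The mean difference, Foxp3 minus CD8, was −0.77 percentage points, lower in 3 of 4 libraries (exact permutation p = 0.25). CD8-gated cells were deeper, with low-class medians of 11668 to 15383 UMIs against 6457 to 7840 in the Foxp3 gate. With 10 or more UMIs of the pair per 10000, the pooled shares were 1.25% in the CD8 and 1.23% in the Foxp3 gate. The mean difference was then −0.19 points, lower in 3 of 4 libraries (exact permutation p = 0.75). How far depth bears on the subset mix was not tested.

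A UMI of a T cell receptor constant gene (Trac, Trbc1 or Trbc2) was found in 116 of 121 high cells (95.9%), the same percentage as in low cells. Of the 111 high cells with a Trbv UMI, 18 (16.2%) had Trbv19 as their segment, and the 111 cells used 17 segments. In low cells Trbv19 was at 13.0% of 8492 cells, over 24 segments, in a far larger number of cells. Trbv3, the most used segment of low cells at 13.2%, was at 5.41% of high cells. No difference in segment use was tested. A UMI of Ncr1, an NK cell receptor, was found in 4.13% of high and 4.89% of low cells.

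The control library stood apart in transcripts of other cells. There, 5 of 12 high cells carried 10 or more UMIs of the 14 phagocyte markers (41.7%), against 6.34% of its low cells. In the CD40, PD1 and combination libraries, 3 of 44, 4 of 37 and 2 of 28 high cells did, against 7.16%, 7.49% and 8.61% of low cells. The summed phagocyte list ranged from 161 to 1702 CPM (counts scaled to 1000000 UMIs of the class) over the high sums and from 344 to 424 CPM over the low sums. The 9 dendritic cell markers summed to 7.94 to 798 CPM in high and 8.56 to 92.6 CPM in low cells. Of the phagocyte markers, Csf1r is at 0 in all of these cells by the gate, which also limits C1qa, C1qb and C1qc. The 10 T cell markers include Cd3d, Cd3e and Cd3g, which the gate uses, so the sum of that list is a description. The sum was 3088, 4775, 4207 and 3972 CPM in high and 4752, 5658, 5301 and 5447 CPM in low cells. It was lower in high cells in 4 of 4 libraries. Of the 7 members outside the gate, none passed the edgeR test described below, with a median log2 ratio of −0.22. NK markers ranged from 35.5 to 830 CPM in high and from 353 to 1581 CPM in low cells, and neutrophil markers from 92.0 to 712 and from 112 to 743 CPM. Melanoma markers summed to at most 6.30 CPM and haemoglobin genes to 0 in high cells. Scrublet, a doublet scorer, gave 2 of 121 high and 74 of 9226 low cells a score of 0.25 or more. The median score was higher in high cells in 4 of 4 libraries, averaging 0.0398 against 0.0187. The exact permutation p was 0.13, the smallest possible (adjusted p = 0.175). The main gate removed no cell by this score. How far other cells' RNA enters the results below was not tested, and the main counts are given also without the control library and without cells holding phagocyte transcripts. Of the 36007 distinct barcodes, 675 were in 2 or more libraries, 10 high T cell barcodes among them, and none was in the high class of 2 libraries.

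For gene levels, UMIs were summed per library and class, and edgeR compared the 2 classes with the library as a block, so that the 4 libraries, each under another treatment, were the replicates. Of 9518 genes tested, 305 were higher in high cells (3.2%) and 263 lower (2.76%), together 5.97%, at an adjusted p under 0.05. Leaving out the control library gave 620 higher (6.62%) and 483 lower genes (5.16%), together 11.8%, leaving out CD40 73 and 73, PD1 64 and 52, and the combination 69 and 52. Cells with at most 1 UMI of Lyz2, Cd68, Apoe and Ctss together gave 190 higher (2.03%) and 208 lower (2.23%), together 4.26%. This left out 53.7% of high and 57.5% of low cells and kept 4, 22, 18 and 12 high cells in control, CD40, PD1 and combination. The high cells kept were also shallower, with medians of 12456, 14273.5, 12617 and 15466 UMIs against 31192.5, 15629.5, 19651 and 20440. Scaling by total UMIs alone moved the median of all genes from −0.01 to −0.15 on the log2 scale and gave 155 higher against 609 lower genes. DESeq2 gave 587 higher and 303 lower genes, and no filter on low genes 297 higher and 590 lower.

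Chaperones that the gate did not use were also higher in these cells. Leaving out the gate pair, 19 of the 62 tested members of the heat shock lists rose and none fell, beside the 3.2% of all genes called higher. Their median log2 ratio was 0.35, beside −0.01 for all genes. The other 43 tested members did not pass the test. Of 71 members in the files, 9 did not reach the filter of 5 CPM, and Hspb1, counted among the 19, passed it through the high class alone. Without the CD40, PD1 or combination library the count was 10, 9 and 9, beside 73, 64 and 69 of all genes. Without the control library it was 27 of 63 higher, beside 620 of all genes, and 1, Vcp, lower. Hsph1, Hspb1, Dnajb1, Hsp90aa1, Bag3, Hspe1, Dnaja1, Hspa8 and Hsp90ab1 were called whichever library was left out. In cells with few phagocyte transcripts 13 of 62 were higher, beside 190 of 9338 genes, and Vcp was lower. In cells with 10000 UMIs or more in both classes 13 of 62 were higher, beside 127 of 9435 genes.

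Among HSP70 relatives, Hsph1, the HSP110 nucleotide exchange factor (chr5:149614287-149636376), had 322, 605, 618 and 352 CPM in high cells of control, CD40, PD1 and combination. In low cells it had 48.7, 56.5, 54.9 and 51.7 CPM, so the summed level was higher in high cells in 4 of 4 libraries. The log2 ratio was 3.26 ± 0.16 (SE, 4 libraries; edgeR adjusted p = 1.0e-05), and 113 of 121 cells had a UMI. Hspa8, the constitutive HSP70, started from a high level and rose less, by 0.93 ± 0.08 (edgeR adjusted p = 0.000525), from 1386 to 1820 CPM in low to 2358 to 3065 CPM in high cells.

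Among HSP90 genes, the inducible Hsp90aa1 had 1082, 1926, 2261 and 1521 CPM in high cells against 368, 397, 409 and 387 CPM in low cells of control, CD40, PD1 and combination. High cells were above low cells in each library, and the log2 ratio was 2.22 ± 0.14 (edgeR adjusted p = 5.43e-05). The constitutive Hsp90ab1 rose by 0.82 ± 0.08. Of the HSP90 co-chaperones, Ahsa1, Ahsa2, Ptges3, Stip1 and Fkbp4 rose by 0.60 to 0.77 on the log2 scale. In the control library Fkbp4 was at 85.7 against 85.4 CPM and Stip1 at 82.7 against 81.2 CPM, so these 2 differed there by next to nothing.

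Of the HSP40 co-chaperones, which hand clients to HSP70, Dnajb1 had 189, 392, 481 and 279 CPM in high cells against 52.5, 63.6, 51.8 and 68.5 CPM in low cells, in the same library order. Its log2 ratio was 2.60 ± 0.21 (edgeR adjusted p = 0.000428). Dnaja1 rose by 1.23 ± 0.16, and the other 6 tested HSP40 genes did not pass. The mitochondrial chaperonin Hspe1 had 479, 849, 937 and 669 CPM in high and 291, 277, 301 and 251 CPM in low cells (log2 ratio 1.51 ± 0.15, edgeR adjusted p = 0.000815). Its partner Hspd1 rose by 1.03 ± 0.16, the smallest difference being in the control library with 189 against 171 CPM. None of the other 11 chaperonin members, most of them subunits of the cytosolic TRiC ring, passed the test.

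Hspb1, a small heat shock protein that holds unfolded clients, had 139, 45.4, 356 and 55.6 CPM in high and 0.506, 2.74, 0.725 and 0.388 CPM in low cells. Being under 5 CPM in low cells, it passed the filter through the high class alone, so its log2 ratio of 7.0 ± 0.69 is a description. It was carried by few cells: 25 of 121 high cells had a UMI, and 41 of 9226 low cells. In the control library 87.2% of its UMIs in high cells came from 1 cell and in the combination library 76.2%. Bag3, a nucleotide exchange factor that works with HSPB proteins, was at 35.7 to 50.2 CPM in high and 9.92 to 12.5 CPM in low cells (2.09 ± 0.20). Of the ubiquitin group, Ubb, Ubqln1 and Zfand2a, a stress-induced proteasome adaptor, rose by 0.43 to 1.42. Hsf1, the main heat shock factor, was at 17.7 to 28.3 CPM in high and 29 to 33 CPM in low cells and did not pass (−0.14 ± 0.18, edgeR adjusted p = 0.729).

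**Figure D2:**
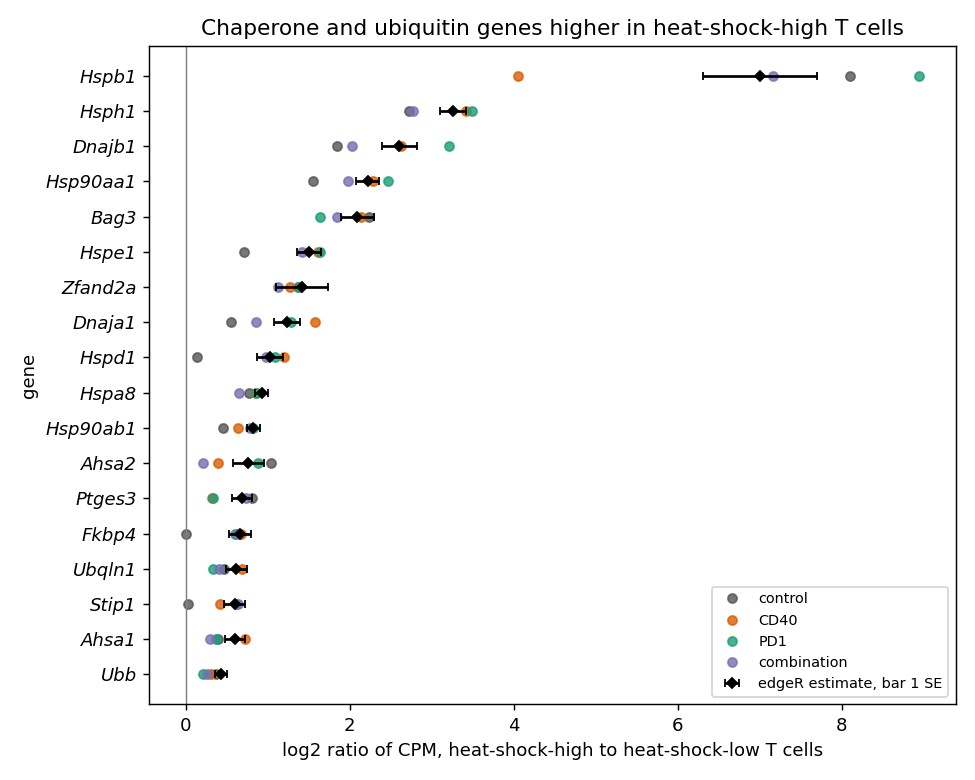
log2 ratio of CPM between heat-shock-high and heat-shock-low T cells for 18 of the 19 chaperone and ubiquitin genes called higher. Circles are the 4 libraries, scaled by total UMIs alone. Diamonds are the edgeR estimate with 1 SE, which uses TMM scaling, so the 2 are not on quite the same scale. The edgeR median of all genes was −0.01 with TMM and −0.15 with total UMIs alone. Hspb1 lies at 7.0 and the other genes between 0.43 and 3.26, with the control library often at the low end.

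The promoters of Hspb1 and Zfand2a are shown for members with matches to the heat shock element letters clear of annotated exons. Each is 60 bases on the gene's strand (GRCm38.p6; chr5:135887796-135887855, plus, and chr5:139484654-139484713, minus), with the matches in capitals.
Hspb1: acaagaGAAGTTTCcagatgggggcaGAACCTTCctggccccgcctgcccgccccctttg
Zfand2a: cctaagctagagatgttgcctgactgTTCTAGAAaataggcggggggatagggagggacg
Hspb1 holds GAANNTTC 117 and 97 bases before its start. GAANNTTC and TTCNNGAA, which can overlap and read the same on both strands, were searched for in the 250 bases before the start. A match was found in 7 of the 15 higher heat shock genes with a listed promoter (46.7%). Of 34 other tested members, 8 had one (23.5%), and 12.2% of 7587 tested genes did. The heat shock element of 3 alternating units was found in Hspd1 and Hspe1, whose promoter windows overlap, and in 1 other tested member, Dnajb6, against 0.435% of tested genes. A match is a run of letters, not a measured binding site.

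The genes were also counted in single cells. At least 4 of Hsph1, Dnajb1, Hspb1, Bag3 and Hspe1 had a UMI in 51 of 121 high cells (42.1%), in 34 of the 211 cells with 2 to 9 Hspa1 UMIs (16.1%) and in 420 low cells (4.55%). Among high cells, the separate shares with a UMI were 93.4%, 85.1%, 20.7%, 40.5% and 97.5%, and whether the genes met in a cell more often than these give was not tested. The shares move with depth, whose medians were 18023, 14102 and 10898.5 UMIs. Levels, which are scaled to total UMIs, are given here as averages over the 4 libraries, and single libraries did not always follow the order of the averages. Hsph1 averaged 52.9 CPM over the 4 libraries at 0 to 1 Hspa1 UMIs, 151 at 2 to 9, 313 at 10 to 29 (65 cells) and 670 at 30 to 252 (56 cells). Dnajb1 went 59.1, 112, 187 and 481 CPM. Against them, Socs1 went 130, 85.2, 40.6 and 40.4 CPM. H2-K1, an MHC class I heavy chain chosen for display after its values were seen, went 3168, 2561, 1814 and 1519 CPM.

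**Figure D3:**
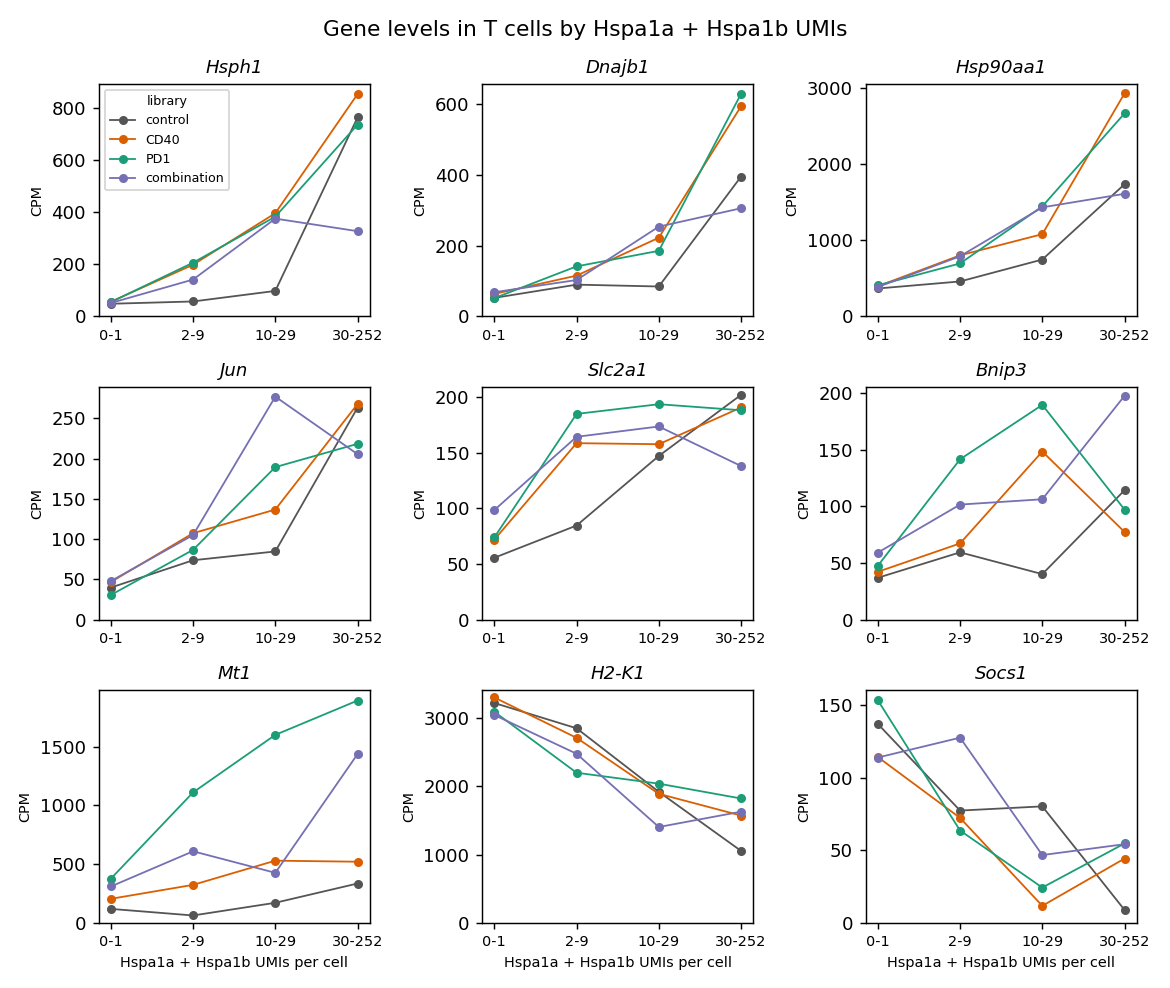
CPM of 9 genes in T cells by Hspa1a and Hspa1b UMIs per cell (0 to 1, 2 to 9, 10 to 29 and 30 to 252), 1 line per library. The highest Hsph1, Dnajb1 and Hsp90aa1 value of each library is in one of the upper 2 bins, and so is the lowest H2-K1 value. The control library has 12 cells in its upper bins.

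Genes of glucose use and low oxygen were higher too. Of 16 members tested, 11 were higher and none lower, beside the 3.2% of all genes called higher, with a median log2 ratio of 0.71. With control, CD40, PD1 or combination left out the count was 13, 6, 5 and 7, beside 620, 73, 64 and 69 over all genes. It was 7 in cells with 10000 UMIs or more, beside 127 of all genes, and 9 of 15 in cells with few phagocyte transcripts, beside 190. Bnip3, a mitophagy receptor induced by hypoxia, had 65.0, 116, 128 and 151 CPM in high and 36.9, 42.1, 47.5 and 59.1 CPM in low cells (1.45 ± 0.13, edgeR adjusted p = 0.000733). Slc2a1, the glucose transporter GLUT1, had 165, 173, 190 and 156 CPM against 55.5, 71.8, 73.9 and 98.4 CPM (1.34 ± 0.16, edgeR adjusted p = 0.00217). Both were above low cells in each library. The glycolytic enzymes Tpi1, Aldoa, Gapdh, Eno1, Pgk1, Pkm and Ldha rose by 0.42 to 0.87. Outside the lists, the hypoxia-inducible genes Hilpda, Ndrg1, Ero1l and Bhlhe40 rose by 1.29 to 1.58. Txnip, which restrains glucose uptake, fell by 1.42 ± 0.25 on the log2 scale.

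Of the oxidative stress list, 3 of 16 rose, beside the 3.2% of all genes called higher. Mt1, a metallothionein that binds zinc and copper, had 225, 524, 1795 and 919 CPM in high and 117, 203, 374 and 308 CPM in low cells (1.71 ± 0.18, edgeR adjusted p = 0.00118). Mt2 rose by 1.76 ± 0.22, although in the control library it was at 14.8 against 15.8 CPM. Txn1 rose by 0.53 ± 0.12 and lost the call in 9 of 20 other settings, and with cells of 5000 to 15000 UMIs it was at −0.01. Of 18 tested members of the endoplasmic reticulum stress list, Ppp1r15a (1.51 ± 0.18) and Atf4 (1.03 ± 0.13) rose and Dnajc3 fell, with a list median of 0.10. Ppp1r15a and Atf4 belong to the integrated stress response. The lumenal chaperones Hspa5 (0.40 ± 0.10, edgeR adjusted p = 0.0526) and Hsp90b1 (0.23 ± 0.10, adjusted p = 0.186) did not pass.

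Immediate early genes divided. Of 22 tested, 4 rose and 3 fell, beside the 3.2% and 2.76% of all genes called higher and lower. Jun, a subunit of the AP-1 transcription factor (chr4:95049034-95052222), had 145, 197, 209 and 242 CPM in high and 39.7, 46.7, 30.6 and 47.8 CPM in low cells (2.43 ± 0.16, edgeR adjusted p = 5.43e-05). Fosl2, Klf6 and Dusp1, which encodes a MAP kinase phosphatase, rose by 1.00 to 1.46. Klf2, a factor of resting T cells, Ier2 and Myc fell by 1.44, 0.98 and 0.70 on the log2 scale. Fos was at 5.04 to 37.7 CPM in high and 7.42 to 15.1 CPM in low cells and did not pass (0.65 ± 0.33, edgeR adjusted p = 0.271), with 52.1% of its UMIs in high cells from 1 cell. In the damage and death list, 5 of 15 rose, among them Fas, Cdkn1a, Pmaip1 and Mdm2, and Bcl2 and Casp8 fell. Without the control library these 7 calls stood, and without any other library at most 1 did. Over all genes, 1103 were called without the control library and 146, 116 and 121 without CD40, PD1 and combination.

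Many effector and resting T cell genes were lower. Of 16 cytotoxic effector genes tested, 9 fell and none rose, beside the 2.76% of all genes called lower, with a median of −0.75. The 8 NK markers, which share Gzma with this list, moved with it: their sum was 35.5, 830, 195 and 310 CPM in high and 353, 1581, 519 and 1566 CPM in low cells, lower in 4 of 4 libraries, and their part in the result was not tested. Ccl5, a T cell chemokine, had 1673, 960, 1888 and 2183 CPM in high and 2432, 4714, 3599 and 5655 CPM in low cells (−1.14 ± 0.23, edgeR adjusted p = 0.0228). Tnf, an inflammatory cytokine, had 2.96, 15.1, 12.1 and 15.9 CPM against 30.2, 55.6, 33.9 and 56.6 CPM (−1.73 ± 0.22, edgeR adjusted p = 0.00329). Klrg1, Gzma, Gzmk, Xcl1, Ccl3, Ccl4 and Fasl fell too. Gzmb, the main granzyme, was at 538, 1417, 2904 and 3567 CPM in high against 842, 1280, 2673 and 2822 CPM in low cells and did not pass (0.15 ± 0.13, edgeR adjusted p = 0.536). Without the control library Gzmb and Gzmc were among the higher genes. Of the effector list, 9 fell without control and 3, 4 and 3 without CD40, PD1 and combination. Over all genes, 483, 73, 52 and 52 were then called lower. Of 11 naive and stem-like genes 7 fell, with a median of −1.34. Tcf7, the factor TCF1 of stem-like T cells, had 5.91, 3.78, 6.73 and 29.1 CPM in high and 111, 43.7, 77.2 and 47.9 CPM in low cells (−2.25 ± 0.43, edgeR adjusted p = 0.018), with a UMI in 9 high cells. The count for this list was 7, 1, 1 and 4 without control, CD40, PD1 and combination. Among cells with 10000 UMIs or more it was 2, beside 87 of all genes called lower. The chemokine gene Ccl1 fell by 3.55 ± 0.40, with UMIs in 5 high cells and none in the CD40 library. Ripor2, a RHOA inhibitor of lymphocytes, fell by 2.04 ± 0.19, and Rgs1, a brake on chemokine receptor signalling, rose by 1.56 ± 0.16.

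Some interferon response genes were also lower. Of 16 tested, 5 fell and none rose, beside the 2.76% of all genes called lower, with a median of −0.67. Iigp1, an immunity-related GTPase, had 8.87, 6.30, 14.8 and 6.62 CPM in high and 72.0, 32.3, 55.4 and 38.4 CPM in low cells (−2.20 ± 0.23, edgeR adjusted p = 0.00107). Socs1, the feedback inhibitor of cytokine signalling, had 56.1, 26.5, 44.4 and 50.3 CPM against 137, 114, 153 and 114 CPM (−1.45 ± 0.17, edgeR adjusted p = 0.00207). Igtp, Gbp6 and Gbp7 fell by 0.77 to 0.83 on the log2 scale. With control, CD40, PD1 or combination left out, 10, 4, 3 and 2 members fell, beside 483, 73, 52 and 52 of all genes. In cells with 10000 UMIs or more only Socs1 and Igtp did, beside 87 of all genes called lower, with a list median of −0.24.

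**Figure D4:**
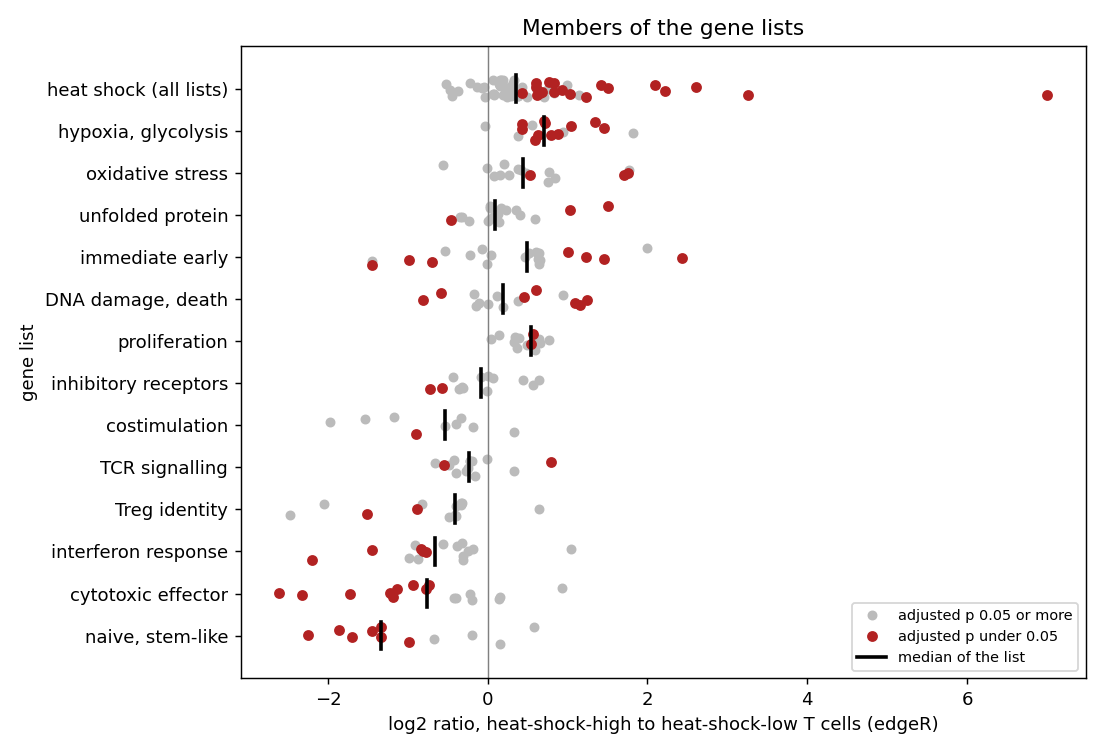
edgeR log2 ratio of each tested list member (points) between heat-shock-high and heat-shock-low T cells, red where the adjusted p is under 0.05, with a bar at the list median. The heat shock and hypoxia lists lie to the right (medians 0.35 and 0.71), and the interferon, cytotoxic and naive lists to the left (−0.67, −0.75 and −1.34).

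Ctla4, an inhibitory receptor, passed the test within the CD8 gate but not in the main fit over all gated cells, and the difference between the 2 was not tested. Over all gated cells it had 168, 373, 427 and 348 CPM in high and 361, 140, 295 and 197 CPM in low cells, lower in the control and higher in the other 3 libraries. It did not pass (0.65 ± 0.30, edgeR adjusted p = 0.227). Over all gated cells Ctla4 was called higher without the control library, in cells with few phagocyte transcripts and with the gate by share of UMIs. It was not called with any other library left out, in deep cells alone or with total UMIs only. Foxp3 fell by 1.51 ± 0.24 on the log2 scale in high cells. Whether the share of regulatory T cells, which express Ctla4, bears on its level was not tested. Within the CD8 gate Ctla4 rose by 1.60 ± 0.23 (edgeR adjusted p = 0.00647). A Ctla4 UMI was found in 80.2% of high and 56.8% of low cells, and in 61.6% and 39.3% after thinning to 5000 UMIs. The thinned share was higher in 3 of 4 libraries (exact permutation p = 0.25). Of the other inhibitory receptors over all cells, Vsir and Tigit fell, and Pdcd1 (0.00 ± 0.11), Lag3 and Havcr2 did not pass. Cd27 was the 1 costimulatory receptor of 9 that fell (−0.90 ± 0.12, edgeR adjusted p = 0.00382). Of 13 tested genes of regulatory T cell identity 2 fell, and of 14 T cell receptor signalling genes Irf4 rose and Ptprc fell. These counts, and those of the 13 inhibitory and 9 costimulatory receptors, stand beside the 3.2% and 2.76% of all genes called higher and lower.

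Within the CD8 gate 141 of 9379 genes were higher (1.5%) and 111 lower (1.18%), together 2.69%. Without the control library these counts were 427 and 325, without CD40 31 and 22, without PD1 39 and 24, and without the combination 52 and 23. Of the heat shock lists 14 of 63 members were higher and Vcp was lower. Of the hypoxia and glycolysis list 9 were higher, of the cytotoxic list 6 lower, of the naive list 5 lower and of the interferon list 2 lower. Hsph1 kept a log2 ratio of 3.15 ± 0.17 and Jun one of 2.47 ± 0.19. Within the Foxp3 gate, with 10 high cells, 78 of 9111 genes were higher (0.856%) and 7 lower (0.0768%), together 0.933%, while the median log2 ratio of all genes was −0.64 and that of the heat shock lists −0.49. Hsph1 and Hspb1 were the heat shock members higher there, and the phagocyte markers Fcgr1, Apoe and Itgam and the dendritic markers Clec10a and Cd209a were higher in the same fit.

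More high than low cells held transcripts of division. At least 2 UMIs of Mki67 and Top2a were found in 52.1% of high and 30.8% of low cells, and in 41.1% and 23.4% after thinning to 5000 UMIs. Both were higher in high cells in 4 of 4 libraries (exact permutation p = 0.13, the smallest possible, adjusted p = 0.175). By level, Tyms and Hmgb2 were the 2 of 15 proliferation genes that rose, beside the 3.2% of all genes called higher. None did within the CD8 gate, where 1.5% of all genes were called higher.

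A few genes rested on 1 library. Ccl17 and Ccl22, chemokines of dendritic cells and macrophages, chosen after their values were seen, were called with log2 ratios of 5.25 ± 0.71 and 3.12 ± 0.78. They were at 553 and 511 CPM in high cells of the control library and 0 in those of the other 3. A single cell gave 98.4% of the Ccl17 UMIs. In the control library 3 of 12 high cells had 10 or more UMIs of Ccl17, Ccl22, Fscn1 and Clec10a together, against 21 of 1673 low cells. In the PD1 library 1 of 37 did and in the CD40 and combination libraries none.

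Between treatments, levels in high cells can be set side by side, as log2 ratios with exact 95% intervals for counting error only. Hsph1 was higher in CD40 than in control high cells by 0.91 (0.61 to 1.22) and in PD1 than in control by 0.94 (0.64 to 1.26). The ratio of combination to PD1 high cells was −0.81 (−1.04 to −0.59) and that of combination to CD40 −0.78 (−1.0 to −0.56). Dnajb1, Hsp90aa1 and Hspe1 had the same order of signs. The gate pair had it too, at 0.116%, 0.268%, 0.262% and 0.136% of the UMIs of high cells in control, CD40, PD1 and combination. The gate counts UMIs without regard to depth, and the depth of high cells differed between libraries. How far this bears on the ratios was not tested. Mt1 was higher in PD1 than in control high cells by 3.0 (2.66 to 3.35) and the ratio of combination to PD1 was −0.97 (−1.10 to −0.83). At 2-fold or more, 5 of 55 heat shock members were higher and 1 lower in CD40 than in control (8.61% and 8.53% of the 6305 genes with 20 or more UMIs). In PD1 than in control 8 of 54 were higher and none lower (7.63% and 8.18% of genes). In combination against PD1, 2 of 60 were higher and 1 lower (4.52% and 4.02%), and in combination against CD40 1 of 60 was higher and 1 lower (4.07% and 3.15%). The CD40 and PD1 comparisons share the control library, which had 12 high cells.

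Other leukocytes held heat-shock-high cells as well. Under the same limit of 10 Hspa1 UMIs, the share in phagocyte-gated cells (3 or more UMIs of Csf1r and Lyz2, no Cd3) was 4.89%, 5.45%, 3.75% and 1.21% in control, CD40, PD1 and combination. It was above the T cell share in 4 of 4 libraries (exact permutation p = 0.13, the smallest possible, adjusted p = 0.333). Phagocyte-gated cells were deeper, with a median of 15220 UMIs against 11005.5 in T cells, and thinned to 5000 UMIs they were at 4.10%, 3.70%, 3.53% and 1.12%. In NK-gated cells the share was 0.472%, 0%, 0.541% and 0%, where 0 of 306 and 0 of 393 cells allow shares of up to 0.980% and 0.763% at 3 counts and have exact upper 95% limits of 1.20% and 0.934%. Thinned, the NK shares were 0.826%, 0%, 0.726% and 0.270%. The difference between high and low cells was compared between T cells and phagocytes for 12 genes chosen after the T cell values were seen. Jun rose more in T cells, by 0.92 ± 0.21 on the log2 scale (edgeR adjusted p = 0.0496 over 8290 genes, of which 148 were called). Hsph1 had 3.26 in T cells and 3.86 in phagocytes (difference −0.60 ± 0.22, edgeR adjusted p = 0.219), and Hsp90aa1 2.22 and 2.23 (−0.01 ± 0.17, edgeR adjusted p = 0.997).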

How the data were processed

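The authors deposited raw UMI counts per gene and barcode for 4 libraries, per the file headers. Cell Ranger 7.0.0 and GRCm38 are named in the submitters' processing notes. The annotation release and any counting of intronic reads were not given in the sources used here. The counts covered 32285 genes and 8132 to 10158 barcodes a library, with 117735875 to 164755549 UMIs. Kept cells numbered 7847, 7906, 9938 and 9720. Members and lists were chosen with earlier results of these data known.

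UMIs were summed per library and class (12, 44, 37 and 28 high cells; 338401 to 793669 UMIs) and tested with edgeR 4.0.16 (R 4.3.3; quasi-likelihood test, TMM, library as a block, since both classes come from the same library, mean of at least 5 CPM over the 8 sums, Benjamini-Hochberg, 0.05). Mice of a library were pooled, so the spread is between 4 libraries. Ratios between libraries set counts under 3 to 3. Intervals are exact at 95%. Named genes were list members, and outside the lists the 10 largest and 10 smallest log2 ratios among calls with 1 sign in 4 libraries and at least 50 CPM. The sign was taken from the CPM. Others are marked as chosen later or belong to markers and gates. Doublets were scored with Scrublet in scanpy 1.11.5 and removed only in an alternative. On simulated counts of 9518 genes the fit recovered 98% and 94% of genes changed by 2 and −2 on the log2 scale. It recovered 22% and 18% of those changed by 1 and −1, with 3 false calls in the whole simulation. Every simulated gene had the same dispersion (spread beyond counting error), which was set and not estimated from these data. Alternatives were DESeq2 1.42.0, other scalings, filters, gates, depths and left-out libraries. Some list members are counted but not reported here by name. Promoters are from RefSeq and coordinates from GENCODE. Scripts ran under Python 3.11.15 with scipy 1.17.1, pandas 2.3.3 and Biopython 1.88.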

Additional observations from a re-analysis of the deposited data

Results flagged for a closer look

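Jun differed between high and low cells by 0.92 more on the log2 scale in T cells than in phagocyte-gated cells (edgeR interaction over the 4 libraries, adjusted p = 0.0496). It was the 1 of 12 compared genes whose difference passed.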

How the results depend on the processing

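Of 99 named genes, 24 were called with the same sign in all 20 alternatives, and 1 changed sign: Txn1, high against low, had a log2 ratio of −0.00913 with 5000 to 15000 UMIs. Counts of higher and lower genes, 305 and 263 as reported, became 155 and 609 with total UMIs only, 587 higher with DESeq2, 590 lower with no filter, 151 lower with a gate by share of UMIs, 74 and 66 with 5000 to 15000 UMIs, 127 and 87 with 10000 UMIs or more, and 190 higher in cells with few phagocyte transcripts. The last 2 were chosen after seeing the data. The cause of these changes was not tested. Leaving out each library gave 64 to 620 higher and 52 to 483 lower genes, and within the CD8 gate 31 to 427 and 22 to 325. The pairing of classes comes from the shared library, and with no replicate block 243 genes were higher and 207 lower, and 36 named genes lost their call. Named genes lost were 59 with 5000 to 15000 UMIs, 41 with 10000 UMIs or more, and 52, 47, 46 and 0 without PD1, CD40, combination and control. The share of high cells became 1.39% in CD40, 0.497% in the combination and 0.921% overall at 20 UMIs, and 1.5% in the control, 3.14% in PD1 and 1.74% overall among cells with 10000 UMIs or more. The Foxp3 minus CD8 difference stayed below 0 in all 12 alternatives, between −1.24 and −0.19 percentage points (exact permutation p from 0.13 to 0.75), and left-out libraries gave −1.04 to −0.65. Left-out libraries were not run within the Foxp3 gate, whose high class has 1 cell in each of 2 libraries. Differences of 1 on the log2 scale were mostly missed in simulated data. Their dispersion was set and not estimated, so the rate of misses in the real data is not known.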
